A study of Caenorhabditis elegans with 2 samples.

Results

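The CEH-16 binding intervals on chromosome V of Caenorhabditis elegans were described by how they divide between the arms and the centre of that chromosome. Members were all intervals that the deposited pooled list places on chromosome V, 5238 of 30000 in the genome. Arm intervals were those with a summit below 5.9 Mb (left arm) or above 16.55 Mb (right arm), and the centre was the stretch between these limits. The arms held 2279 members, 1379 on the left and 900 on the right, and the centre held 2959. Each member was also marked by whether it overlapped, by at least 1 bp, a peak of the deposited optimal list of the irreproducible discovery rate procedure (IDR). IDR keeps peaks by how consistently they rank between lists. Of the 188 IDR peaks on V, 186 overlapped an interval in both replicates, so not every one was called in each. The X chromosome, with 5864 intervals, served as the outside reference.

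The study was a chromatin immunoprecipitation and sequencing experiment (ChIP-seq) on whole L2 larvae of mixed sex, with eGFP-tagged CEH-16. All animals were of strain OP82, which carries the unc-119(tm4063) allele on chromosome III and the insertion wgIs82. There was 1 group of 2 biological replicates, so no condition was compared. The tagged protein came from the insertion wgIs82, whose copy number and expressing cells no label describes. Whole animals were used, so strong binding in few cells and weak binding in many cells cannot be told apart. The files hold peak lists without read counts, so the depth is unknown, and the interval beside each ratio or share covers counting error only. No untagged or input library was analysed here.

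CEH-16 is a homeodomain protein of the Engrailed class, known in the worm for its part in the epidermal seam cells. Autosomes of this worm have a central region of low recombination, where conserved genes gather, and arms with more recombination, more repeats and more rapidly evolving gene families. Chromosome V is known for its large families of chemoreceptor and nuclear hormone receptor genes, and the X chromosome lacks the marked arm and centre structure of the autosomes.

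The sequences are windows of 201 bp, each centred on a summit, from the RefSeq genome (WBcel235, the same assembly as ce11), on the + strand. The first 4 are arm peaks and the last is the centre peak to compare them with. They show the strongest IDR peak of the left arm, right arm and centre whose window holds no UTR, the strongest such peak of the homeobox gene unc-62, and the strongest such peak nearest to a chemoreceptor gene, srw-85. In the order of the lines, they lie at V:5425134-5425334, V:4506632-4506832, V:17951383-17951583, V:19429723-19429923 and V:14506798-14506998. Capitals mark 2 kinds of word, the homeodomain core words, which are TAATTA (its own reverse complement) with TAATTG as a variant and its reverse complement CAATTA, and the word GATAA, whose reverse complement is TTATC. Each line is named for the nearest protein-coding gene.
cyp-14A5: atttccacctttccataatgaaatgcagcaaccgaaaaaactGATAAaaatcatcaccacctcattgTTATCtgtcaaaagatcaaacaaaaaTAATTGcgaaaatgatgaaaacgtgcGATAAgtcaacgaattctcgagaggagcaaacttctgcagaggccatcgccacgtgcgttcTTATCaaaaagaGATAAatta
unc-62: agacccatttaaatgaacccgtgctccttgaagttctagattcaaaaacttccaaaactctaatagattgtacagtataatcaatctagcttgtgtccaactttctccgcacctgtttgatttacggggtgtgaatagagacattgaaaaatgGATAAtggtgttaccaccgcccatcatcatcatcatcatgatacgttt
Y59A8B.24: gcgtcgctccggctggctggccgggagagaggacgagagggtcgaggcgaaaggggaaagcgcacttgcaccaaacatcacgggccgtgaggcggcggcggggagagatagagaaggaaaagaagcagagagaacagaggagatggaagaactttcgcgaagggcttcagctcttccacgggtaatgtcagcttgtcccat
srw-85: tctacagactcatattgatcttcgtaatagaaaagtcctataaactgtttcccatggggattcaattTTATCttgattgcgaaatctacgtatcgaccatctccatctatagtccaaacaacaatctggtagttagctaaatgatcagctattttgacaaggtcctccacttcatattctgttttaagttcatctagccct
R02D5.1: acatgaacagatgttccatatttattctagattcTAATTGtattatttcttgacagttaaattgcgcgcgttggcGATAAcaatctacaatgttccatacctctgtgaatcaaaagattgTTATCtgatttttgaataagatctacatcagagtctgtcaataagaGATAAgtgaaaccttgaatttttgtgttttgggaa
The cyp-14A5 window held 1 core word and 5 copies of GATAA, and the R02D5.1 window of the centre held 1 core word and 3 copies. The unc-62 and srw-85 windows each held 1 GATAA and no core word. The Y59A8B.24 window held neither word, and its GC content of 59.7% was above that of the other 4, which ran between 31.8% and 38.3%.

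The arms carried fewer IDR peaks than the centre. IDR peaks numbered 32 in the left arm, 18 in the right arm and 138 in the centre, of 188 on the whole chromosome. The arms together held 4.87 per Mb and the centre 13 per Mb, a ratio of 0.376 (95% exact conditional interval 0.266 to 0.523). The left arm held 5.42 per Mb (exact Poisson interval 3.71 to 7.66) and the right arm 4.12 per Mb (2.44 to 6.50), and these 2 intervals overlap. Chromosome V as a whole held 8.98 IDR peaks per Mb, against 19.5 per Mb on X and 13.4 per Mb on chromosomes I to IV together. The ratio of V to X was 0.460 (0.383 to 0.551).

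**Figure D1:**
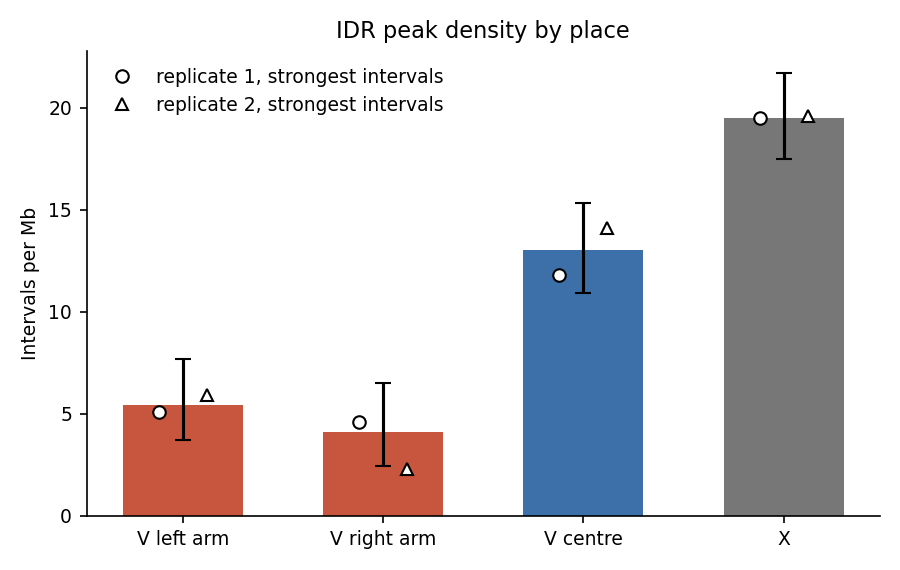
IDR peaks per Mb (bars, with exact 95% Poisson intervals) in the V left arm, V right arm, V centre and X, with the density of each replicate's 1358 strongest intervals (circles, replicate 1; triangles, replicate 2). Both arms lie below the centre in the IDR list and in each replicate, and the right arm has 4.57 per Mb in replicate 1 and 2.29 per Mb in replicate 2.

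Both replicates had the arms below the centre. For each, the 1358 intervals of highest column 7, the signal column of the lists, were taken, as many as there are IDR peaks. Arms held 4.87 per Mb of these in replicate 1 and 4.38 per Mb in replicate 2, and the centre held 11.8 and 14.1 per Mb. X held 19.5 and 19.6 per Mb. In the right arm the replicates differed, with 20 intervals in replicate 1 and 10 in replicate 2. In the left arm they had 30 and 35. The arms-to-centre ratio was 0.411 (0.290 to 0.575) in replicate 1 and 0.311 (0.218 to 0.437) in replicate 2.

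The pooled list, which holds weak intervals too, showed a smaller difference. It had 221.8 intervals per Mb in the arms and 277.8 per Mb in the centre, a ratio of 0.798 (0.756 to 0.843). V had 250.3 and X 330.9 per Mb. Of the pooled intervals, 53 of 2279 in the arms (2.33%, Wilson interval 1.78% to 3.03%) and 143 of 2959 in the centre (4.83%, 4.12% to 5.67%) overlapped an IDR peak, beside 4.79% over the genome. The arms were thus below the genome-wide share and the centre was close to it. The difference was -2.51 percentage points (Newcombe interval -3.50 to -1.50). V as a whole had 196 of 5238 (3.74%), against 376 of 5864 (6.41%) on X.

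The arm deficit was graded by signal. The 30000 pooled intervals were ranked by column 7 over the genome and split into 5 classes. Among ranks 1 to 1358 the arms-to-centre density ratio was 0.363 (0.256 to 0.508), with 48 intervals in the arms and 137 in the centre. It was 0.477 (0.395 to 0.574) among ranks 1359 to 5000 and 0.690 (0.599 to 0.795) among ranks 5001 to 10000. Among ranks 10001 to 20000 it was 0.820 (0.746 to 0.90). In the weakest class, ranks 20001 to 30000, the arms held 90.9 and the centre 89.2 per Mb, a ratio of 1.02 (0.930 to 1.12). The ratio of V to X followed the same order of classes, with 0.446, 0.563, 0.724, 0.806 and 0.867, and its interval stayed below 1 in the weakest class (0.812 to 0.925). The pooled list holds exactly 30000 intervals, and whether its weak end was set by a limit on length is not stated.

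**Figure D2:**
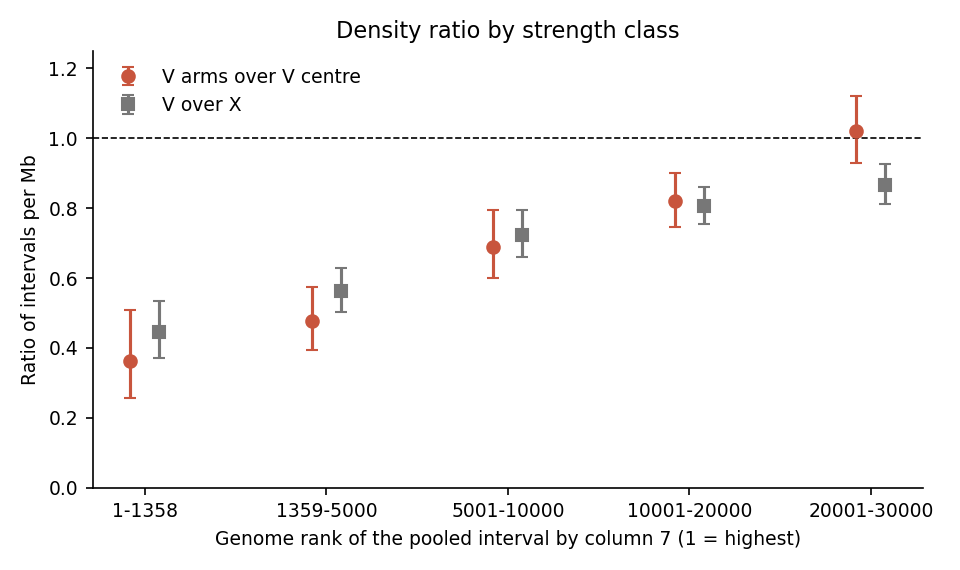
Ratio of interval densities (per Mb) for V arms over V centre (circles) and V over X (squares), in 5 classes of pooled intervals by genome rank of column 7, with exact 95% intervals and a dashed line at 1. The arms-to-centre ratio is 0.363 in the strongest class and 1.02 in the weakest.

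The other autosomes were set beside V by 3 equal lengths, since the arm limits used here belong to V. Outer parts of V, 2 of 3 equal lengths, held 6.74 IDR peaks per Mb and the middle part 13.5 per Mb, a ratio of 0.50 (0.372 to 0.673). This was the lowest of the 6 chromosomes by point estimate. Chromosome I had 0.576 (0.440 to 0.756), II 0.705 (0.532 to 0.937), III 0.747 (0.561 to 0.999) and IV 0.761 (0.559 to 1.04). X had 1.09 (0.863 to 1.38). The interval of V overlaps those of the 4 other autosomes and lies wholly below that of X.

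Arms also hold more repeated sequence. The share of 31-base words that occur once in the genome was 87.2% in the arms, 92.9% in the centre and 94.4% on X. Per Mb of such unique positions, IDR density was 5.58 in the arms, 13.9 in the centre and 20.7 on X, and the arms-to-centre ratio was 0.400 (0.284 to 0.557). Without IDR peaks in which under 80% of 31-base words were unique, the ratio per Mb of assembled length was 0.384 (0.272 to 0.535). Soft-masked repeats made up 40.0% of the arms and 28.1% of the centre.

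Along the chromosome the low density was not even. In steps of 1 Mb assigned by their midpoint, the 10 arm steps held 0 to 9 IDR peaks with a median of 5.5, and the 11 centre steps held 4 to 21 with a median of 12. The longest stretch without an IDR peak, V:2638879-4361607 in the left arm, ran for 1723 kb. It held 439 protein-coding genes, 164 of them chemoreceptor genes, and 363 pooled intervals with column 7 of at most 25.8. The next longest lay in the right arm, with 891.8 kb at V:16965998-17857830 and 779.5 kb at V:19643332-20422815. On X the longest was 394.7 kb. Unique 31-base words made up 90.0% of the 1723 kb stretch.

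The 2 longest stretches without any pooled interval had few unique positions, and the next did not. The longest, V:2327252-2569679 in the left arm (242.4 kb, 55 genes, 19 of them chemoreceptor genes), had unique 31-base words at 7.38% of its positions. The second, V:8803738-8898626 in the centre (94.9 kb), held 27 genes, 14 of them histone genes, with 8.69% unique positions. In each, the replicate lists held 4 intervals in all, 3 and 1 in the first and 1 and 3 in the second (replicate 1 and replicate 2). Their column 7 was at most 3.62. The next, V:2907917-2961036 in the left arm (53.1 kb, 15 genes, 11 of them chemoreceptor genes), had 86.7% unique positions, with 5 intervals in replicate 1 and 7 in replicate 2. Of blocks of 10 kb without a pooled interval, 72 of 170 in the arms (42.4%) and 42 of 169 in the centre (24.9%) had under 80% unique positions. Among all blocks of 10 kb, with or without an interval, this share was also higher in the arms (18.1%) than in the centre (9.39%). By point estimate, blocks under 80% unique lacked a pooled interval no more often in the arms than in the centre.

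**Figure D3:**
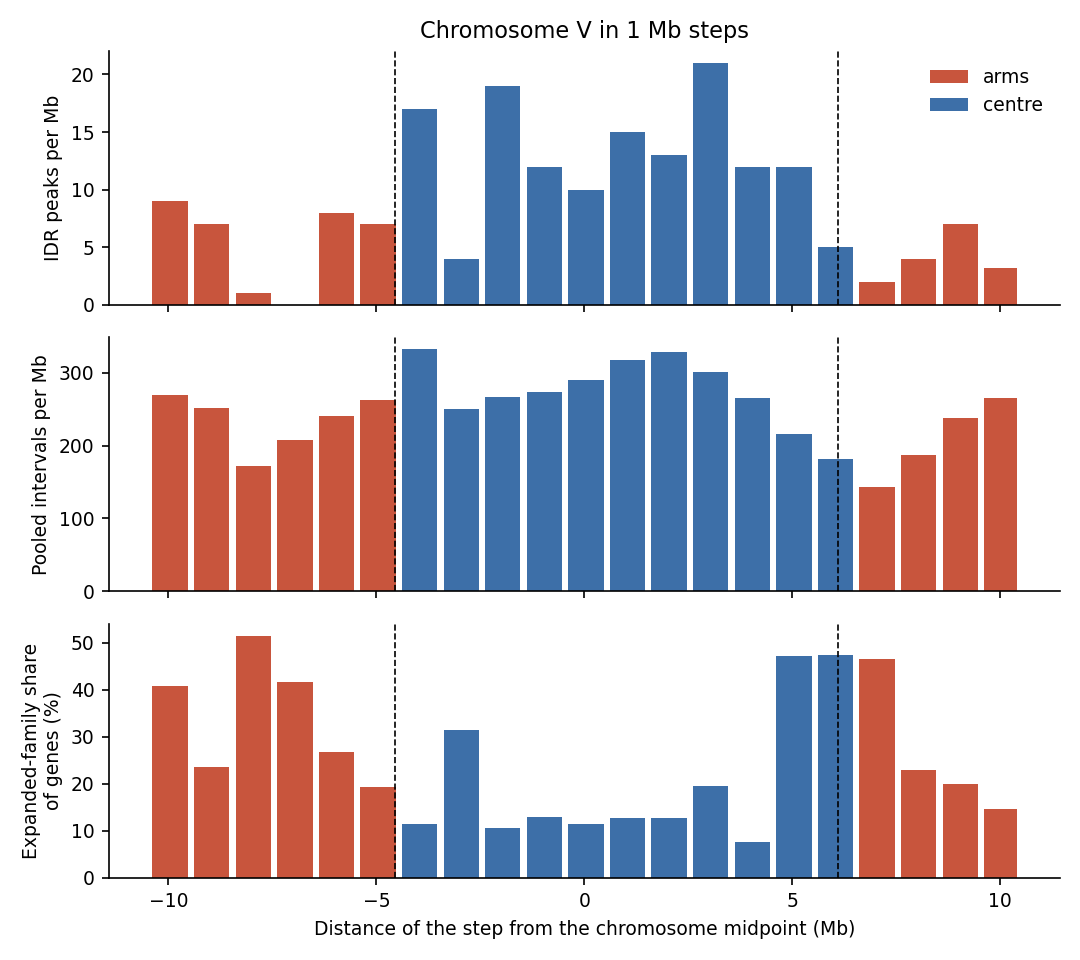
IDR peaks per Mb, pooled intervals per Mb and the percentage of protein-coding genes in expanded families, in 1 Mb steps by distance from the midpoint of chromosome V (arms and centre coloured by step midpoint, dashed lines at the limits). IDR peaks reach at most 9 in an arm step and 21 in a centre step.

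The arms were also below the centre when peaks were counted per gene. The arms held 216.9 protein-coding genes per Mb and the centre 259.7, so the arms had 2.24 IDR peaks per 100 genes and the centre 4.99. V as a whole had 3.76 per 100 genes, against 12.7 on X, where genes are sparser (154.1 per Mb). A gene was counted as having a peak when it was the nearest to an IDR summit within 1000 bp of its 5′ end. This held for 26 of 2228 genes in the arms (1.17%, 0.798% to 1.70%) and 71 of 2766 in the centre (2.57%, 2.04% to 3.23%), beside 3.52% of all genes. The ratio was 0.455 (0.278 to 0.722). On V it held for 97 of 4994 genes (1.94%), against 162 of 2731 on X (5.93%), a ratio of 0.327 (0.252 to 0.424). With any pooled interval in place of an IDR peak, the shares were 37.2% in the arms and 41.3% in the centre, and 39.4% on V and 54.3% on X.

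Genes of 7 expanded families, chosen by symbol, made up 33.6% of arm genes, 20.4% of centre genes and 3.22% of X genes. Leaving them out did not bring the arms level with the centre. Of the remaining genes, 20 of 1479 in the arms (1.35%) and 67 of 2203 in the centre (3.04%) had an IDR peak, a ratio of 0.445 (0.256 to 0.742). With the strongest intervals of replicate 1 alone the ratio was 0.627 (0.372 to 1.03), and with the outer 2 of 3 equal lengths as arms it was 0.700 (0.449 to 1.09). Both of these intervals include 1. Within the expanded families, 6 of 749 arm genes (0.801%) and 4 of 563 centre genes (0.710%) had an IDR peak, a difference of 0.0906 percentage points (-1.09 to 1.12).

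Chemoreceptor genes, which encode receptors of the sensory neurons, form the largest family on V and had almost no IDR peak. None of 494 in the arms had one, which allows a share of up to 0.607%, and 2 of 392 in the centre did (0.510%), beside 1.17% of all arm genes and 2.57% of all centre genes. A pooled interval was present at 26.5% of arm and 22.4% of centre chemoreceptor genes, below the 37.2% of all arm genes and 41.3% of all centre genes, with medians of their strongest column 7 at 5.08 and 5.51. The 2 with an IDR peak were srh-16, with column 7 of 45.8 (replicate 1 33.6, replicate 2 19.3), and srz-97, with 33.8 (19.1 and 16.8). The srz-97 summit lay inside the snRNA gene F08H9.11. The strongest in the arms was srh-2 with 20.1 in the pooled list. A further pair of right-arm peaks, of 37.1 and 30.9, had srw-85 as nearest gene, but its 5′ end was 1313 bp and 2003 bp away, outside the window.

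The other expanded families are small beside the 1.94% of all V genes with an IDR peak, so a count of 0 in them does not set them apart. F-box genes, whose products select proteins for degradation, had no IDR peak among 87 on V (up to 3.45% allowed), with fbxa-209 highest at 13.1 in the pooled list. C-type lectin genes had none among 86 (up to 3.49%), with clec-233 highest at 14.9. Cytochrome P450 genes, which oxidise small molecules, had none among 41 (up to 7.32%), with cyp-33C7 highest at 13.6. UDP-glucuronosyltransferase genes had none among 42, with ugt-42 highest at 8.46, and the 3 MATH or BTB genes had none.

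Nuclear hormone receptor genes, which encode ligand-regulated transcription factors, held 8 of the 10 genes of expanded families on V with an IDR peak. IDR peaks were present at 6 of 94 in the arms (6.38%, 2.96% to 13.2%) and 2 of 73 in the centre (2.74%, 0.755% to 9.45%), a difference of 3.64 points (-3.89 to 10.8). On V as a whole 8 of 167 had one (4.79%, 2.45% to 9.17%), an interval that includes the 3.52% of all genes in the genome and lies above the 1.94% of all genes on V. On X, 7 of 23 had one (30.4%), and the V-minus-X difference was -25.6 points (-46.2 to -10.2). The left arm holds 77 of the 94 arm members and the right arm 17, for which a count of 0 allows up to 17.6%. All 6 arm genes with an IDR peak were in the left arm. They were nhr-47 with column 7 of 37.8 (replicate 1 10.4, replicate 2 28.0), nhr-177 with 30.1, nhr-155 with 29.4, nhr-179 with 27.3, nhr-58 with 26.2 and nhr-251 with 23.4. The replicates were far apart for nhr-58 (6.25 and 22.5) and for nhr-179 (3.45 and 15.0). In the centre, nhr-168 had 40.6 and nhr-175 had 37.9.

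Peaks beside these receptor genes lay close together. Of the 32 IDR peaks of the left arm, 10 had a nuclear hormone receptor gene as nearest gene, and 7 of these fell within 270.0 kb at V:532048-802010, nearest to nhr-58, nhr-155, nhr-251 and nhr-270. The strongest had column 7 of 52.8 and lay in the intergenic sequence upstream of nhr-251. Over all expanded families, 13 of 50 IDR summits in the arms (26.0%) and 6 of 138 in the centre (4.35%) were nearest to such a gene, a difference of 21.7 points (10.4 to 35.4). By point estimate both shares were below the share of genes in these families, 33.6% in the arms and 20.4% in the centre. Here shares of summits, at any distance from a gene, stand beside shares of genes, and no interval was computed for this comparison. Of the 13 arm summits, 10 were nearest to a nuclear hormone receptor gene. Several of these summits share a gene, so they are not independent.

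**Figure D4:**
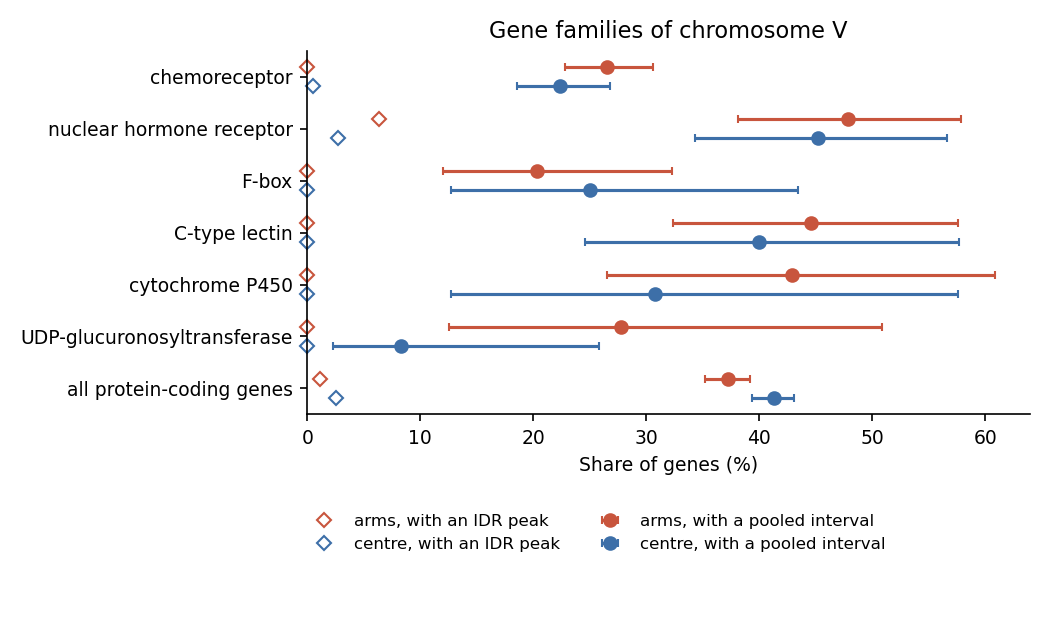
Share of protein-coding genes (%) with a pooled interval (filled circles, Wilson 95% intervals) and with an IDR peak (open diamonds) in arms (upper of each pair) and centre, for 6 expanded families and for all genes of chromosome V. Chemoreceptor genes have a pooled interval at 26.5% in the arms and 22.4% in the centre, yet an IDR peak at 0% and 0.510%.

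The counts of the smaller families rest on few genes and stand beside 1.94% of all V genes with an IDR peak. Histone genes had an IDR peak at 3 of 30, namely his-4 (78.8), his-37 (71.1) and his-5 (31.0). All 3 were in the centre, where 28 of the 30 lie. Repeated histone genes hold few unique positions, so their counts are uncertain. Ribosomal protein genes had one at 2 of 8, rpl-39 (56.1) and rpl-38 (26.1), proteasome genes at 1 of 5 (rpt-2, 24.8) and translation factors at 1 of 4 (eef-1G, 28.9), all in the centre. The centre holds 5 of the ribosomal protein genes, 4 of the proteasome genes and 3 of the translation factors, too few elsewhere to compare it with the arms. Cuticle collagen genes had one at 2 of 33, col-10 in the centre with 28.8 and col-42 in the right arm with 24.2, and 69.7% of them had a pooled interval, beside 39.4% of all V genes. Hedgehog-related or patched-related genes had none among 32 and chaperone genes none among 14, numbers too small to set a count of 0 apart from that share.

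Among 16 homeobox genes on V, unc-62 alone had an IDR peak in the window (6.25%, 1.11% to 28.3%), beside 1.94% of all V genes. It encodes a Meis-class partner of Hox proteins and lies in the left arm. The gene has several annotated 5′ ends, and so more window than a gene with a single end. It owned 4 IDR summits within 1000 bp of a 5′ end, the most of any gene on V, and another lay 2420 bp downstream of its nearest 5′ end. Their column 7 values were 54.8, 53.3, 35.6 and 27.2, and 23.4 for the last. The first had 33.6 in replicate 1 and 32.4 in replicate 2, and the peak of 27.2, whose window is printed, had no interval in replicate 1 and 19.4 in replicate 2. Of 10 genes on V from a list for epidermal and larval development, unc-62 was the only one with an IDR peak in the window. Groups of 16 and 10 genes are too small to set such counts apart from the share of all V genes. Pooled intervals of sma-1 (23.8), which encodes a heavy beta-spectrin of the apical epidermis, and dpy-11 (20.1), needed for body shape, came next. An IDR peak of 33.5 lay upstream of unc-70, the beta-spectrin gene, outside the window.

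Most small RNA genes of V with an IDR peak were in the centre. Of snoRNA genes, 1 of 14 in the arms and 14 of 41 in the centre had an IDR peak within 200 bp, and the arms-minus-centre difference was -27 points (-43.4 to 0.386), an interval that includes 0. The arm gene was Y43F8C.22, with 25.2 (replicate 1 9.0, replicate 2 6.94). In the centre, the highest were F09G2.14 (65.9) and W06H8.17 (65.1), at 88 bp and 181 bp from the summit. Genes for tRNA had an IDR peak at 0 of 28 in the arms and 3 of 50 in the centre, and snRNA genes at 0 of 18 and 2 of 22. None of 28 miRNA genes and none of 15 rRNA genes had one. The rRNA genes, all in the right arm, had no pooled interval within 200 bp either. The share of all genes with an IDR peak within 200 bp was not computed. These groups are small, and their counts of 0 do not set them apart from other genes. Many snoRNA genes lie in introns of other genes, and which of the 2 genes a peak belongs to was not tested.

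Column 7 of the IDR peaks did not differ between arms and centre by more than its counting error. Their median column 7 was 32.9 in the arms (exact interval 29.4 to 37.5) and 33.9 in the centre (32.3 to 36.6), and 33.8 on both V and X. The difference of medians was -0.04 on the log2 scale (-0.24 to 0.16). The lowest IDR peaks had 23.2 in both places, and this lower end follows from selection by IDR. The left arm had a median of 36.6 and a maximum of 74.8, the right arm 29.6 and 45.0, and the centre reached 174.4. Intervals outside the IDR list were weaker in the arms, with medians of 5.36 in the arms and 5.94 in the centre, a log2 difference of -0.15 (-0.18 to -0.10). Their median on X was 6.03.

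**Figure D5:**
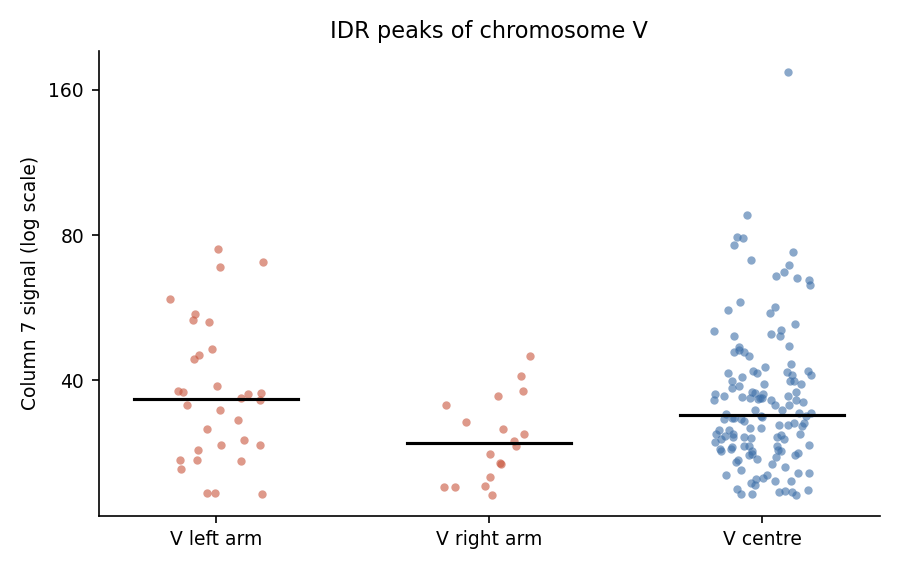
Column 7 signal (log axis) of each IDR peak in the V left arm (32 peaks), V right arm (18) and V centre (138), with a line at the median. The medians are 36.6, 29.6 and 33.9, and only centre peaks exceed 74.8.

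The strongest left-arm peak lay just upstream of hir-1, a receptor tyrosine kinase gene, at V:5523310-5523605, with column 7 of 74.8 and with 27 in replicate 1 and 47.8 in replicate 2. It was followed by pmt-2, a methyltransferase gene of phosphatidylcholine synthesis, with 70.3 (46.7 and 27). Next was a peak of 68.7 (30.0 and 38.2), which is the cyp-14A5 window and lay in the long noncoding RNA gene linc-96. A further peak of 44.3 fell in linc-96 on the side of rhr-1, an ammonium transporter gene. A peak of 58.9 lay in linc-128, with the calmodulin gene cmd-1 as nearest protein-coding gene. T10B5.3, with 46.5 (19.8 and 24.5), completed the 8 highest together with the 2 highest unc-62 peaks and the nhr-251 peak above.

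No IDR peak of the right arm exceeded 45.0. Its highest, near Y59A8B.24, had 39.6 in replicate 1 and 8.82 in replicate 2. The next, 40.8, lay upstream of hif-1, the hypoxia-inducible factor gene, with 27 and 32.7. Peaks of 38.1 and 32.8 had Y43F8B.2 as nearest gene, one in an intron and one just upstream of its 5′ end. Y39B6A.43 had 35.5 (24.3 and 17.3) and C14B4.2 had 31.7 (6.23 and 21.6).

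The strongest peak of V was in the centre, upstream of R02D5.1 at V:14506812-14507003, with 174.4 and with 74.1 in replicate 1 and 97.6 in replicate 2. It was followed by a peak of 88.2 that lay in an intron, with T28B11.1 as the gene of the nearest 5′ end, and another peak of 74.0 lay within 1000 bp upstream of T28B11.1. The rest of the highest 8 were sec-61.G (79.2), a subunit gene of the protein translocon, his-4, a peak of 76.5 whose nearest protein-coding gene was ZC190.4, his-37 and ifbp-1 (69.4).

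Agreement of the replicates at IDR peaks was lower in the arms by point estimate. Of arm IDR peaks, 22 of 50 (44.0%) were among the 1358 strongest in both replicates, against 80 of 138 in the centre (58.0%), a difference of -14.0 points (-29.1 to 2.06). In the right arm, median column 7 was 17.5 in replicate 1 and 12.5 in replicate 2, and in the centre it was 19.1 and 18.2. Outside the IDR list, the highest arm intervals were those near unc-51 (27.6, with 22.4 and 3.7 in the replicates), arrd-19 (25.8) and sws-1 (25.5). In the centre these were hyls-1 (28.7), pqn-70 (28.6) and F57A8.1 (27.9).

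Positions relative to genes differed between arms and centre in the side of the 5′ end, though several arm summits lay close to that end. Summits within 1000 bp of a 5′ end made up 64.0% of IDR peaks in the arms and 55.1% in the centre, a difference of 8.93 points (-7.10 to 23.4). Of these promoter summits, 21 of 32 in the arms (65.6%) and 66 of 76 in the centre (86.8%) lay upstream of the nearest transcript 5′ end rather than downstream of it. An upstream summit can still lie inside a gene that has several 5′ ends. The difference was -21.2 points (-39.5 to -4.39). The 4 unc-62 summits count separately here, and 2 of them lay downstream of the nearest 5′ end. The col-42 summits, at 102 bp and 537 bp, were downstream too. Other arm summits counted as downstream lay close to the 5′ end, at 9 bp (nhr-177), 18 bp (nhr-47), 19 bp (pmt-2), 33 bp (K11D12.14) and 43 bp (Y43F8C.3). In the centre, those of H12C20.7 (9 bp) and saeg-1 (36 bp) were as close. The difference was not recomputed without these close summits. On X, 151 of 177 (85.3%) lay upstream. Introns held 4 of 50 IDR summits in the arms and 22 of 138 in the centre. The difference was -7.94 points (-16.5 to 4.07), an interval that holds both signs. Among intervals outside the IDR list, introns held 15.4% in the arms and 11.3% in the centre.

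IDR peaks were richer in G and C than other intervals in both places. Median GC content of the 201 bp window was 44.3% in the arms and 44.3% in the centre for IDR peaks, and 38.3% in the arms and 36.8% in the centre for the other intervals. The homeodomain core words, searched on both strands, were less common at IDR summits than at other summits. These words are rich in A and T, and whether their lower share goes with the higher GC content of IDR windows was not tested. At least 1 occurred in 3 of 50 IDR windows in the arms (6.0%) and 20 of 138 in the centre (14.5%), a difference of -8.49 points (-16.4 to 2.84). None of the 18 right-arm windows held one, which allows a share of up to 16.7%. Among other intervals the shares were 19.5% in the arms and 23.5% in the centre, and among all windows of this length they were 21.9% in the arms and 25.6% in the centre. The share in IDR windows minus that in other intervals was -9.48 points over V (-13.6 to -3.92) and -6.90 points on X (-10.5 to -2.56).

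GATAA on either strand, a word chosen after the printed windows had been seen, occurred in 25 of 50 IDR windows in the arms (50.0%) and 52 of 138 in the centre (37.7%), a difference of 12.3 points (-3.41 to 27.7). Among all windows the shares were 35.8% in the arms and 41.0% in the centre. Arm IDR windows exceeded other arm intervals (34.1%) by 15.9 points (2.35 to 29.4), and centre IDR windows differed from other centre intervals (40.3%) by -2.59 points (-10.5 to 5.92). The left arm had 18 of 32 (56.2%) and the right arm 7 of 18 (38.9%), against 34.2% and 34.1% of their other intervals. The printed cyp-14A5, unc-62 and srw-85 windows, seen before the word was chosen, are among the 25. On X the shares were 41.3% of IDR windows and 37.9% of other intervals. A word match is a description of the sequence and not a binding site.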

How the data were processed

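The deposited files are peak lists in narrowPeak form for each replicate and for both replicates pooled, plus the IDR list, on ce11 and ce10. The README files deposited with them describe the lists as peaks and background used as input for IDR, made from replicate alignments and a control. No source used here names the peak caller, the aligner or the threshold of IDR. Column 7 is a signal value written by the authors' peak caller, on a scale that is not stated. Column 9 is −log10 of a q-value as deposited, and it has 1 value for all IDR peaks, so it was not used to rank them. Summits come from column 10.

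Genes and 5′ ends are those of Ensembl release 115, and sequences, soft-masked repeats and unique 31-base words come from the RefSeq genome. Each summit was given to the nearest 5′ end of a protein-coding transcript, and genes were placed by their midpoint. Named genes are the owners of the 8 highest IDR peaks per place, family members with an IDR peak, the 3 highest members of each expanded family and the highest 3 intervals outside the IDR list. Other genes named, such as unc-70 and rhr-1, were chosen after their values were seen. Density ratios have exact conditional binomial intervals, shares Wilson intervals, differences of shares Newcombe intervals and medians exact binomial intervals, all at 95%. The limit that a count of 0 allows is 3 counts divided by the number examined, and it is tighter than the upper Wilson limit. No p-value was computed, because there is 1 group of 2 replicates. The interval steps were tested on simulated data. Members, gene lists and rank classes were chosen with earlier results of these data known. Python 3.11.15, numpy 2.4.6, pandas 2.3.3 and scipy 1.17.1 were used.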

Additional observations from a re-analysis of the deposited data

How the results depend on the processing

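The 10 ratios and differences between arms and centre or between V and X were recomputed under 17 settings, 83 values in all. In 77 the direction did not turn, and the interval still included, or still excluded, the value for no difference. Of these 77, the promoter share difference was exactly 0 on replicate 2 alone. The arms-to-centre ratio of IDR density ran between 0.311 and 0.50, the V-to-X ratio between 0.432 and 0.513, and the arms-to-centre ratio for genes with an IDR peak between 0.339 and 0.623. The log2 difference of IDR medians, whose interval includes 0, was 0.07 with limits moved 0.5 Mb towards the centre, and ran between -0.02 and 0.02 on single replicates. The promoter share difference, also with 0 inside its interval, was -3.37 points among the IDR peaks of higher column 7 and -1.45 points with a 500 bp window, and ran between 0 and 11.6 points on single replicates. For genes outside the expanded families the arms-to-centre ratio was 0.700 with the outer 2 of 3 equal lengths as arms and ran between 0.345 and 0.627 on single replicates, where the interval for replicate 1 includes 1. The cause was not tested. The density in unique 31-base words was added after the data had been seen. No paired analysis was possible because there is 1 group. With 18 IDR peaks in the right arm, most shares there have wide intervals.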

Other observations

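Some strong intervals did not pass IDR. At or above the lowest column 7 of the IDR list, 23.2, 9 of 57 pooled intervals in the arms (15.8%) and 20 of 156 in the centre (12.8%) overlapped no IDR peak, and on V as a whole 29 of 213 (13.6%), against 56 of 397 on X (14.1%). The limit comes from the IDR list and was applied to column 7 of the pooled list. The lists can differ at the same coordinates, as at rpt-2, with 24.8 in the IDR list and 34.9 in the pooled list. In the right arm, the stretch V:17115903-17428996 (313.1 kb) spans the 15 rRNA genes and 12 SL1 RNA genes of V. It held 35 pooled intervals, 35 intervals of replicate 1, 44 of replicate 2 and no IDR peak, and unique 31-base words made up 77.9% of it.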
